A study of Mus musculus with 8 samples.

Results

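The 9 genes described here encode enzymes and RNA-binding proteins that edit or degrade viral nucleic acids or stop their translation: Adar, Apobec1, Apobec3, Isg20, Pnpt1, Zc3hav1, Mov10, Samhd1 and Eif2ak2. They were chosen by name, as the probes to which the array design gives one of these symbols. The arrays carry 14 such probes, 2 for each of 5 genes and 1 for each of the other 4. All 14 were tested and were well above background on all 8 arrays, among 20801 gene names tested in all.

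The RNA came from a line of immortalized mouse intestinal epithelial cells, IEC10, that carries a firefly luciferase gene under the Mx2 promoter. All arrays thus represent 1 cell line from 1 transgenic strain. The cells were kept for 21 days on transwell inserts to polarize. They were then left untreated (PBS, control, replicates 2 and 3) or exposed for 9 h to IFN-λ2 or IFN-β. IFN-λ2 was given at 20 ng/mL (replicates 1 to 3) and IFN-β at 500 U/mL (replicates 1 to 3). Control replicate 1 was not analysed here. The comparison asks whether a type III and a type I interferon (IFN) induce different transcripts in polarized epithelium. Each IFN was given at 1 dose and 1 time, so every difference between the cytokines holds for these doses. The labels do not say whether the arrays of a group came from separate cultures, so that p-values measure only the spread between these samples, which may be technical.

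IFN-λ2 and IFN-β bind different receptors but both activate the factor ISGF3, which binds an interferon-stimulated response element (ISRE) in the promoters of interferon-stimulated genes (ISGs). Another element of such promoters is the gamma-activated site (GAS). Among the products of ISGs are sensors of double-stranded RNA and nucleases that act on viral RNA, and in the intestinal epithelium the type III receptor is known for its part in defence against enteric viruses.

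Intensity is the relative brightness of a probe, scaled so that the 75th percentile of each array is 1500, and is given here in normalized gPS (processed green signal) units. Differences are log2 differences of group means with a 95% confidence interval. A probe was called higher or lower at an adjusted p under 0.05 in limma's moderated test with Benjamini-Hochberg adjustment over all probes. For a gene with 2 probes, the brighter one stands for the gene and the other is called the second probe. Levels of different genes were not compared, since probes differ in brightness.

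With IFN-λ2, 7 of the 9 genes were higher than in control cells and 0 were lower, against 10.0% of all probes higher and 8.55% lower. With IFN-β, 7 of the 9 were higher and 0 lower, against 1.44% higher and 0.208% lower among all probes. With a plain 2-sample test of equal variances, which pools no spread over probes, and the same adjustment, 5 of the 9 were called higher with IFN-λ2 and 1, Adar, with IFN-β. At an unadjusted p under 0.05, limma also gave 0 lower genes in either comparison, as did the plain 2-sample test. The median log2 difference of the 9 genes was 1.0 with IFN-λ2 and 1.2 with IFN-β, whereas over all probes it was 0.00083 and 0.016. The sizes formed a range, with no cut set between genes. Eif2ak2, Adar and Isg20 were raised most, then Zc3hav1, Pnpt1 and Mov10, then Samhd1. The 2 Apobec genes were not called against control.

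**Figure D1:**
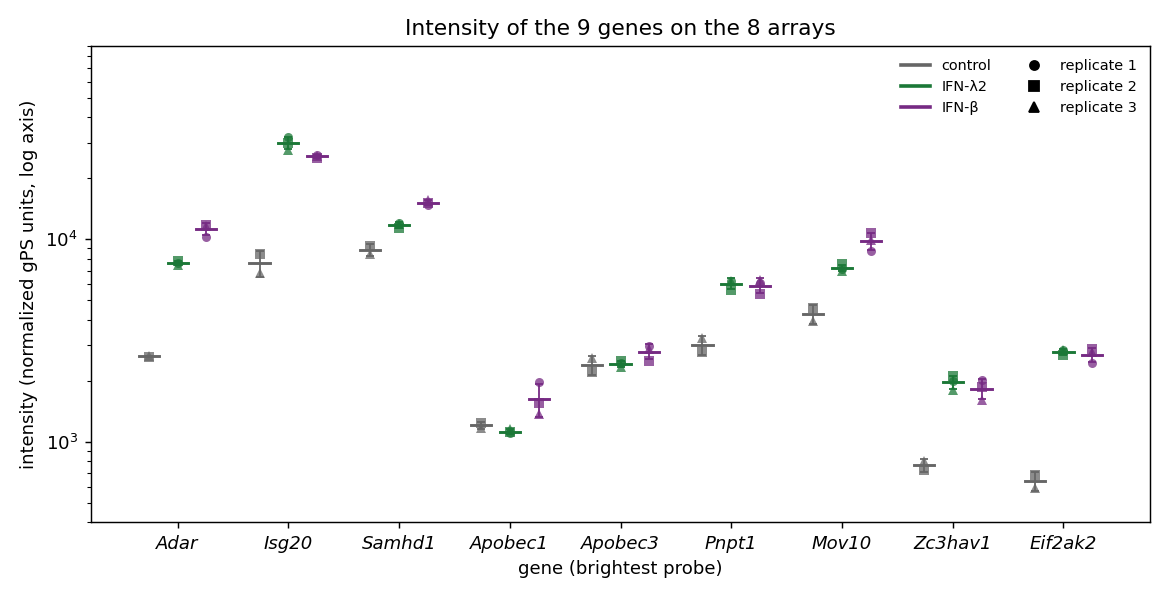
Intensity of the brightest probe of each of the 9 genes in normalized gPS units (log axis). Points are single arrays, shaped by replicate number, horizontal bars are group means and vertical bars are SD (control n = 2, IFN-λ2 n = 3, IFN-β n = 3). Both cytokine groups lie above the control arrays for 7 genes, while the Apobec3 groups overlap with control. For Apobec1 the IFN-λ2 arrays lie just below control and the IFN-β arrays above it, and neither difference was called. The share of all probes that separate in this way was not computed.

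**Figure D2:**
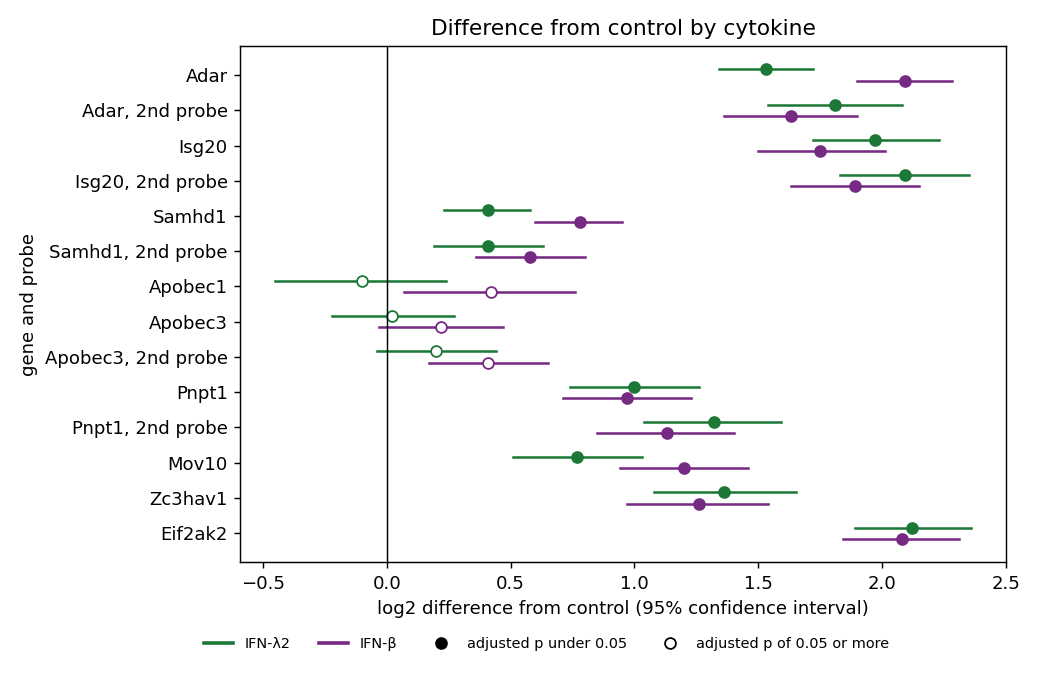
Log2 difference from control for each of the 14 probes, IFN-λ2 in green and IFN-β in purple, with the 95% confidence interval as a line. Filled points mark an adjusted p under 0.05. The values run from -0.10 for Apobec1 with IFN-λ2 to 2.12 for Eif2ak2 with IFN-λ2, and the 11 probes of 7 genes are filled for both cytokines.

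Adar encodes ADAR1, which deaminates adenosine to inosine in double-stranded RNA. It is made in a long form from an interferon-inducible promoter and a shorter constitutive form, and which forms the 2 probes detect was not examined. The brightest Adar probe (mm9 chr3:89555266-89555325, plus strand) read 2625 and 2649 units in control replicates 2 and 3. It read 7591, 7818 and 7452 units with IFN-λ2 and 10303, 11780 and 11645 units with IFN-β, replicates 1 to 3 in order. The 3 groups were thus fully separated, with control lowest and IFN-β highest. The log2 difference from control was 1.53 (1.34 to 1.72, adjusted p = 5.02e-05, limma), or 2.89-fold, with IFN-λ2 and 2.09 (1.90 to 2.28, adjusted p = 1.65e-05), or 4.26-fold, with IFN-β.

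The second Adar probe lies further along the gene (mm9 chr3:89557158-89557217, plus strand). It read 1342 and 1242 units in control cells, 4704, 3946 and 4971 units with IFN-λ2 and 4174, 3763 and 4084 units with IFN-β. Here the 2 cytokine groups overlapped and both lay above control. The log2 difference was 1.81 (adjusted p = 0.000121, limma) with IFN-λ2 and 1.63 (adjusted p = 0.000351) with IFN-β, so that both probes rose with both cytokines but did not rank the cytokines alike.

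Apobec1 encodes the cytidine deaminase that edits apolipoprotein B mRNA in the small intestine. Its probe (mm9 chr6:122527908-122527967, minus strand) read 1236 and 1170 units in control cells and 1100, 1110 and 1153 units with IFN-λ2. With IFN-β it read 1966, 1550 and 1363 units. The IFN-β arrays were all above the other groups but spread widely, replicate 1 being the highest. The difference from control was -0.10 (-0.45 to 0.24, adjusted p = 0.666, limma) with IFN-λ2 and 0.42 (0.07 to 0.76, adjusted p = 0.32) with IFN-β, and neither was called.

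Apobec3 encodes a cytidine deaminase that restricts retroviruses. Its brightest probe (mm9 chr15:79738107-79738166, plus strand) read 2204 and 2579 units in control cells, 2440, 2503 and 2334 units with IFN-λ2 and 2964, 2515 and 2877 units with IFN-β. Each cytokine group overlapped with control. Relative to control, the log2 difference was 0.02 (-0.22 to 0.27, adjusted p = 0.898, limma) with IFN-λ2 and 0.22 (-0.03 to 0.47, adjusted p = 0.475) with IFN-β. The upper bounds correspond to at most 1.21-fold and 1.38-fold.

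The dimmer Apobec3 probe is shown because its values stood apart from control without being called, and because it lies on another part of the gene (mm9 chr15:79725905-79725964, plus strand). Its 60 bases, as given in the array files, are
Apobec3, second probe: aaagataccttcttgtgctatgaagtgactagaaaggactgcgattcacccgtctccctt
This probe read 243 and 222 units in control cells, 285, 244 and 274 units with IFN-λ2 and 320, 284 and 323 units with IFN-β. Both cytokine groups lay above control, IFN-λ2 by a narrow margin at replicate 2. The difference was 0.20 (adjusted p = 0.219, limma) with IFN-λ2 and 0.41 (adjusted p = 0.156) with IFN-β.

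Of 13 other editing enzymes and cofactors, 7 were tested, and with IFN-λ2 1 was higher and 1 lower. For this and the following lists, 10.0% of all probes were higher and 8.55% lower with IFN-λ2, and 1.44% and 0.208% with IFN-β. The median log2 difference of the 7 was -0.01 with IFN-λ2 and 0.01 with IFN-β. Adarb1, which encodes the second catalytically active adenosine deaminase of this family, fell with IFN-λ2 from 3232 to 2250 units (log2 difference -0.52 ± 0.07 SE, adjusted p = 0.00385, limma). With IFN-β its difference from control was -0.11 (adjusted p = 0.628). Rbm47, a cofactor of APOBEC1, differed by 0.01 with either cytokine. A1cf, another cofactor, did not reach the 15-unit floor on 2 arrays and was not tested. The gene of this list called higher with IFN-λ2 was Syncrip (0.61, adjusted p = 0.0124, limma), named after its values were seen. With IFN-β Syncrip differed by 0.53 (adjusted p = 0.102).

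Isg20 encodes a 3′ to 5′ exonuclease that degrades single-stranded RNA. Its brightest probe (mm9 chr7:86065136-86065195, plus strand) read 8440 and 6842 units in control cells. With IFN-λ2 it read 31928, 29953 and 27692 units, and with IFN-β 25911, 25049 and 25846 units. Each IFN-λ2 array was above each IFN-β array, and both groups lay far above control. The log2 difference was 1.97 (1.72 to 2.23, adjusted p = 5.94e-05, limma), or 3.92-fold, with IFN-λ2 and 1.75 (1.5 to 2.01, adjusted p = 0.000167), or 3.37-fold, with IFN-β. The second probe (mm9 chr7:86064960-86065019) gave 2.09 and 1.89, with the same order of groups.

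Pnpt1 encodes polynucleotide phosphorylase, a 3′ to 5′ exoribonuclease found mainly in mitochondria. Its brightest probe (mm9 chr11:29061503-29061562, plus strand) read 2783 and 3240 units in control cells, 6231, 5593 and 6241 units with IFN-λ2 and 6071, 5344 and 6296 units with IFN-β. The cytokine groups overlapped almost entirely and stood apart from control. Relative to control, the log2 difference was 1.0 (0.74 to 1.26, adjusted p = 0.00147, limma) with IFN-λ2 and 0.97 (0.71 to 1.23, adjusted p = 0.00554) with IFN-β. The second probe (mm9 chr11:29061769-29061828) was dimmer, at 185 and 184 units in control cells, and differed by 1.32 and 1.13. When only the control and IFN-β arrays were fitted, the IFN-β differences were not called (adjusted p = 0.0654 and 0.0545 for the brightest and the second probe).

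Zc3hav1 encodes ZAP, the zinc finger antiviral protein, which binds CpG-rich viral RNA and recruits nucleases to it. Its probe (mm9 chr6:38266325-38266384, minus strand) read 725 and 801 units in control cells, 1991, 2105 and 1802 units with IFN-λ2 and 2022, 1855 and 1607 units with IFN-β. The cytokine groups overlapped and lay above control on each array. The log2 difference was 1.36 (1.08 to 1.65, adjusted p = 0.000586, limma), or 2.57-fold, with IFN-λ2 and 1.26 (0.97 to 1.54, adjusted p = 0.0022), or 2.39-fold, with IFN-β.

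Of 36 other exonucleases with their helicase cofactors, exosome subunits and decapping factors, all tested, 2 were higher and 1 lower with IFN-λ2, and 1 was higher with IFN-β. The median log2 difference was 0.01 and 0.05. Dcp2, the catalytic subunit of the decapping enzyme, was the one called higher with both cytokines and is named here after its values were seen. It read 291 and 287 units in control cells, 542, 560 and 572 units with IFN-λ2 and 515, 577 and 531 units with IFN-β, a log2 difference of 0.95 (adjusted p = 0.000353, limma) and 0.90 (adjusted p = 0.000962). Supv3l1, the helicase that works with polynucleotide phosphorylase in mitochondria, differed by 0.26 (adjusted p = 0.177) and 0.08 (adjusted p = 0.848).

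Of 11 ZAP cofactors and related nucleases, 8 were tested and 1 was higher with each cytokine. This was Trim25, the ubiquitin ligase that ZAP needs for its activity. Trim25 read 25424 and 22881 units in control cells. It read 73890, 69427 and 66530 units with IFN-λ2 and 61094, 63107 and 60575 units with IFN-β. Both cytokine groups lay above control, and the log2 difference was 1.53 (adjusted p = 4.92e-05, limma) and 1.35 (adjusted p = 0.000134). Khnyn, a nuclease that acts with ZAP, differed by -0.26 (adjusted p = 0.151) and -0.18 (adjusted p = 0.576).

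Mov10 encodes an RNA helicase that associates with Argonaute proteins and UPF1 and restricts RNA viruses and retroelements. Its probe (mm9 chr3:104597754-104597813, minus strand) read 4578 and 3926 units in control cells, 7153, 7505 and 6979 units with IFN-λ2 and 8760, 10667 and 9958 units with IFN-β. As for the brightest Adar probe, the 3 groups did not overlap, control being lowest and IFN-β highest. Relative to control, the log2 difference was 0.77 (0.51 to 1.03, adjusted p = 0.00455, limma), or 1.70-fold, with IFN-λ2 and 1.2 (0.94 to 1.46, adjusted p = 0.00168), or 2.30-fold, with IFN-β. Of 17 genes of the Argonaute and UPF1 pathways, 16 were tested. With IFN-λ2 1 was higher and 1 lower, and with IFN-β none was called at an adjusted p under 0.05. Ago2 differed by 0.13 and Upf1 by -0.01 with IFN-λ2 (adjusted p = 0.456 and 0.956).

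Samhd1 encodes a deoxynucleotide triphosphohydrolase, which lowers the supply of dNTPs for reverse transcription. Its brightest probe (mm9 chr2:156923265-156923324, minus strand) read 9255 and 8445 units in control cells, 12038, 11310 and 11885 units with IFN-λ2 and 14730, 15128 and 15601 units with IFN-β. The 3 groups were separated in the same order as for Mov10. The log2 difference was 0.41 (0.23 to 0.58, adjusted p = 0.011, limma), or 1.33-fold, with IFN-λ2 and 0.78 (0.60 to 0.95, adjusted p = 0.00208), or 1.71-fold, with IFN-β. Without control replicate 3 the IFN-λ2 difference was 0.34 (adjusted p = 0.0576). Over the settings tried, other than leaving out an array, its adjusted p ran from 0.00305 to 0.0664.

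The second Samhd1 probe is shown because its 60 bases span 1354 bases of the genome (mm9 chr2:156930644-156931997, minus strand), so that it crosses a splice junction and reports on spliced transcripts:
Samhd1, second probe: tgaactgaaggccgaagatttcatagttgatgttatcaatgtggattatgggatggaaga
It read 1001 and 1103 units in control cells, 1319, 1516 and 1348 units with IFN-λ2 and 1641, 1597 and 1493 units with IFN-β. Both cytokine groups were above control and overlapped each other. The difference was 0.41 (adjusted p = 0.0257, limma) and 0.58 (adjusted p = 0.0306). For IFN-λ2 this call was lost without control replicate 2 (0.34, adjusted p = 0.114) or 3 (0.48, adjusted p = 0.0548) and without IFN-λ2 replicate 1 (0.44, adjusted p = 0.0516), 2 (0.34, adjusted p = 0.0589) or 3 (0.43, adjusted p = 0.055). For IFN-β it was lost without any 1 array other than IFN-λ2 replicate 2 (0.51 to 0.65, adjusted p = 0.0663 to 0.153). With the replicate number as a block neither was called (0.41, adjusted p = 0.0747, and 0.59, adjusted p = 0.167). Of 12 genes of dNTP supply and uracil handling, all tested, 1 was higher with IFN-λ2 and none was called with IFN-β. Rrm2, a subunit of ribonucleotide reductase, differed by 0.02 and 0.03 (adjusted p = 0.939 and 0.968).

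Eif2ak2 encodes PKR, the kinase that is activated by double-stranded RNA and halts translation by phosphorylating the initiation factor eIF2α. Its probe (mm9 chr17:79252168-79252227, minus strand) read 688 and 592 units in control cells, 2833, 2680 and 2822 units with IFN-λ2 and 2457, 2866 and 2760 units with IFN-β. The cytokine groups overlapped and lay far above control. Relative to control, the log2 difference was 2.12 (1.89 to 2.36, adjusted p = 2.86e-05, limma), or 4.35-fold, with IFN-λ2 and 2.08 (1.84 to 2.31, adjusted p = 4.55e-05), or 4.21-fold, with IFN-β.

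None of the other eIF2 kinases was called higher. Eif2ak1 differed by 0.08 and 0.05 and Eif2ak4 by -0.09 and 0.07 (adjusted p = 0.694, 0.908, 0.679 and 0.888). Eif2ak3, which encodes the kinase PERK of the endoplasmic reticulum, fell with IFN-λ2 from 4186 to 3127 units (-0.42, adjusted p = 0.0145, limma). With IFN-β its difference was -0.27 (adjusted p = 0.237). Of 25 other eIF2 kinases, eIF2 and eIF2B subunits, phosphatases, PKR regulators, genes of the stress response downstream of eIF2 and stress granule components, all tested, 3 were higher and 4 lower with IFN-λ2, against 10.0% and 8.55% of all probes, and none was called with IFN-β. Those higher were the stress granule genes G3bp1 (0.50, adjusted p = 0.00989) and G3bp2 (0.53, adjusted p = 0.00572) and Tarbp2 (0.30, adjusted p = 0.0301), which encodes a PKR inhibitor. Those lower were Eif2ak3, Dnajc3, Prkra (-0.50, adjusted p = 0.00857), whose product PACT activates PKR, and the stress-response gene Ddit3 (-0.41, adjusted p = 0.0366). Dnajc3, whose product P58IPK inhibits PKR and PERK, read 1625 and 1850 units in control cells and 833, 698 and 713 units with IFN-λ2, a log2 difference of -1.22 (adjusted p = 0.00669). With IFN-β it read 1175, 740 and 951 units (-0.89, adjusted p = 0.103), also below each control array. Eif2s1, the substrate of these kinases, differed by 0.21 and 0.05, and Ppp1r15a, a phosphatase subunit that reverses its phosphorylation, by 0.04 and 0.05 (adjusted p = 0.0737, 0.811, 0.753 and 0.846).

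Over the 6 lists of related genes, 104 of 114 were tested. With IFN-λ2 9 (8.65%) were higher and 7 (6.73%) lower, and 1 in each direction changed at least 2-fold, Trim25 and Dnajc3. The split moved with the setting, to 7 higher and 11 lower with quantile normalization, 6 and 3 with normexp background correction, 11 and 10 with a floor of 50, and 5 and 5 without control replicate 3. With IFN-β 2 (1.92%) were higher, Trim25 and Dcp2, and 0 were lower. At an unadjusted p under 0.05 these were 8 and 7, in limma as in the plain 2-sample test.

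**Figure D3:**
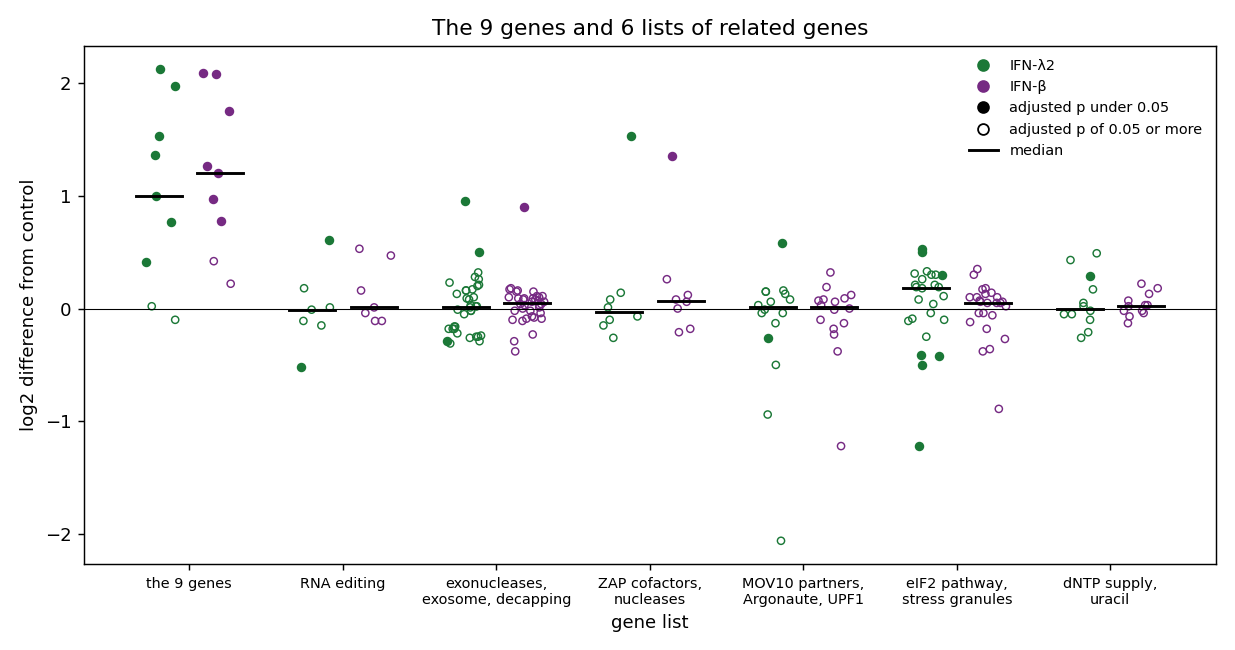
Log2 difference from control of the 9 genes (left) and of the tested genes of 6 lists of related genes, 1 point a gene (IFN-λ2 green, IFN-β purple). Filled points have an adjusted p under 0.05, black bars are medians, and points are spread sideways at random. The medians of the 9 genes are 1.0 and 1.2, and those of the 6 lists run from -0.03 to 0.18.

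The cytokines were then compared directly. Of the 9 genes, 0 were higher with IFN-λ2 and 4 were higher with IFN-β, namely Adar, Apobec1, Mov10 and Samhd1, against 5.53% of all probes higher with IFN-λ2 and 5.68% higher with IFN-β. At an unadjusted p under 0.05 limma gave 0 genes higher with IFN-λ2 and the plain 2-sample test 1. Negative values are higher with IFN-β. The log2 difference was -0.56 (-0.73 to -0.39, adjusted p = 0.00445, limma) for Adar, so that IFN-β exceeded IFN-λ2 by 1.47-fold. It was -0.52 (-0.83 to -0.21, adjusted p = 0.0486) for Apobec1, -0.44 (-0.67 to -0.20, adjusted p = 0.0334) for Mov10 and -0.37 (-0.52 to -0.21, adjusted p = 0.0151) for Samhd1, or 1.43-fold, 1.35-fold and 1.29-fold higher with IFN-β. For each of these 4 genes the 2 cytokine groups did not overlap. Neither did they for Isg20 or the brightest Apobec3 probe, which were not called. The share of all probes without overlap was not computed. For the 4 called genes, the lack of overlap fixes the sign in all 3 pairs of the same replicate number, which share a slide. The differences in these pairs lay between -0.64 and -0.44 for Adar, -0.84 and -0.24 for Apobec1, -0.51 and -0.29 for Mov10 and -0.42 and -0.29 for Samhd1.

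With the replicate number as a block, 2 of these 4 calls were kept, Adar (-0.56, adjusted p = 0.0175) and Mov10 (-0.44, adjusted p = 0.0391). Samhd1 (-0.37, adjusted p = 0.0522) and Apobec1 (-0.52, adjusted p = 0.0772) were not called. Adar was called in each fit that left out 1 array (adjusted p = 0.00512 to 0.0248). Samhd1 lost its call without IFN-λ2 replicate 1 (-0.39, adjusted p = 0.0514) or 2 (-0.34, adjusted p = 0.0525) or IFN-β replicate 3 (-0.35, adjusted p = 0.0629). Mov10 lost it without IFN-λ2 replicate 1 (-0.43, adjusted p = 0.113), 2 (-0.47, adjusted p = 0.0696) or 3 (-0.41, adjusted p = 0.102) or IFN-β replicate 2 (-0.37, adjusted p = 0.0854) or 3 (-0.42, adjusted p = 0.108). Apobec1 kept it only without IFN-β replicate 1 (-0.38, adjusted p = 0.0446) or 3 (-0.64, adjusted p = 0.033), and had an adjusted p between 0.0748 and 0.15 without control replicate 2 or 3, any IFN-λ2 replicate or IFN-β replicate 2 (-0.55 to -0.51). Over the 14 other settings that kept all arrays, Adar was called in 13, Samhd1 in 12, Mov10 in 11 and Apobec1 in 5. With the deposited table Apobec1 differed by -0.50 and was not called (adjusted p = 0.0508), and its adjusted p ran from 0.027 to 0.165 over these settings. The number of arrays limits how firmly these differences can be stated.

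The other 5 genes were not called in the direct comparison. The log2 difference was 0.22 for Isg20 (-0.01 to 0.45, adjusted p = 0.214, limma), 0.11 for Zc3hav1 (-0.15 to 0.36, adjusted p = 0.589), 0.05 for Eif2ak2 (-0.16 to 0.26, adjusted p = 0.8), 0.03 for Pnpt1 (-0.20 to 0.26, adjusted p = 0.891) and -0.20 for Apobec3 (-0.42 to 0.03, adjusted p = 0.245). These intervals leave room for differences of up to 1.36-fold in favour of IFN-λ2, at Isg20. In favour of IFN-β they reach a log2 difference of -0.42, at Apobec3. Isg20 was higher with IFN-λ2 in all 3 same-numbered pairs, by 0.10 to 0.30, and Apobec3 was higher with IFN-β in all 3 pairs, at -0.30 to -0.01 for the brightest probe and -0.24 to -0.17 for the second. For Isg20 and the brightest Apobec3 probe the shared sign follows from groups that do not overlap. Eif2ak2, Zc3hav1 and the brightest probe of Pnpt1 differed in sign among the pairs, while the second Pnpt1 probe was higher with IFN-λ2 in all 3, by 0.10 to 0.29.

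**Figure D4:**
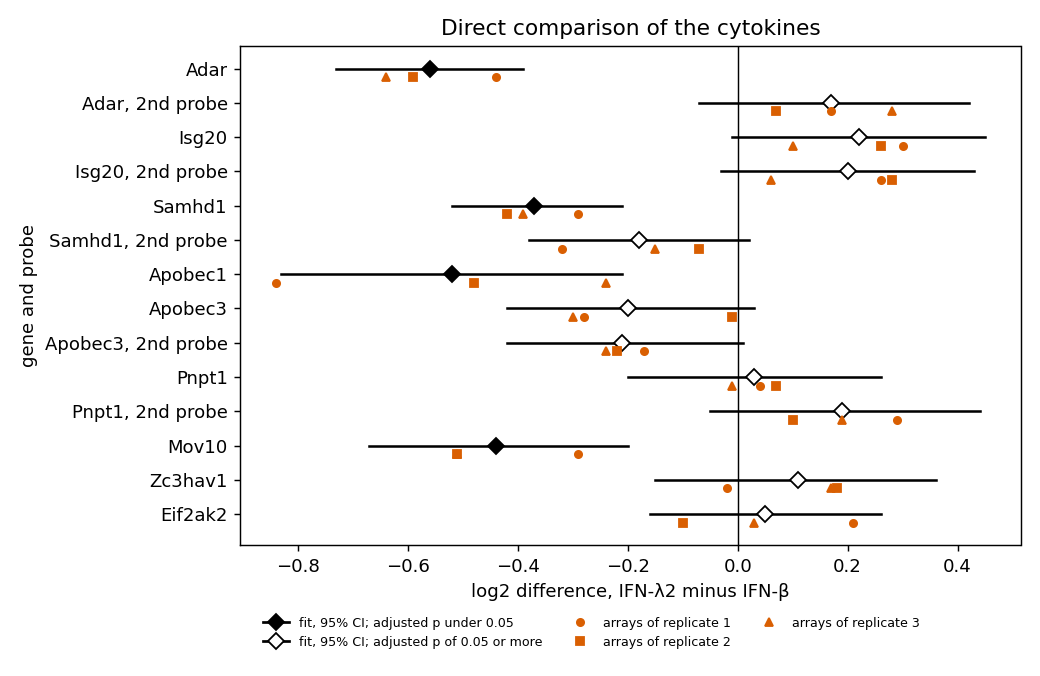
Log2 difference between the cytokines (IFN-λ2 minus IFN-β) for each of the 14 probes. Diamonds are fitted values with the 95% confidence interval, filled at an adjusted p under 0.05, and orange points are the differences between arrays of the same replicate number. The brightest probes of Adar, Samhd1 and Mov10 and the probe of Apobec1 lie left of 0 in all 3 pairs, while the second Adar probe lies right of 0, between 0.07 and 0.28.

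The 2 Adar probes gave different answers to this comparison. The second probe differed by 0.17 (-0.07 to 0.42, adjusted p = 0.336, limma), with the sign opposite to the brightest probe. Within each array, the brightest probe exceeded the second by 0.97 and 1.09 on the log2 scale in control cells, by 0.69, 0.99 and 0.58 with IFN-λ2 and by 1.30, 1.65 and 1.51 with IFN-β. The difference between the probes thus stood apart for the 2 cytokines, by 0.73. In an exact two-sided permutation test p was 0.1 with arrays exchanged freely and 0.25 with exchange only within same-numbered pairs, an alternative added after the data were seen. Each is the smallest p that its test allows, so that neither can reach 0.05. Of the 5 genes with 2 probes, the other 4 shifted by -0.19 to 0.02 (exact permutation p = 0.2 to 1.0 and 0.25 to 1.0), and after adjustment over the 5 genes Adar had 0.5 and 0.625. With the mean over both probes, Adar differed by -0.19 between the cytokines (adjusted p = 0.101, limma), and over all settings other than leaving out an array its adjusted p ran from 0.0012 to 0.101. For Samhd1, the second probe differed by -0.18 (-0.38 to 0.02, adjusted p = 0.233), in the direction of the brightest one. Of the 14 probes, 4 were higher with IFN-β and 0 higher with IFN-λ2.

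**Figure D5:**
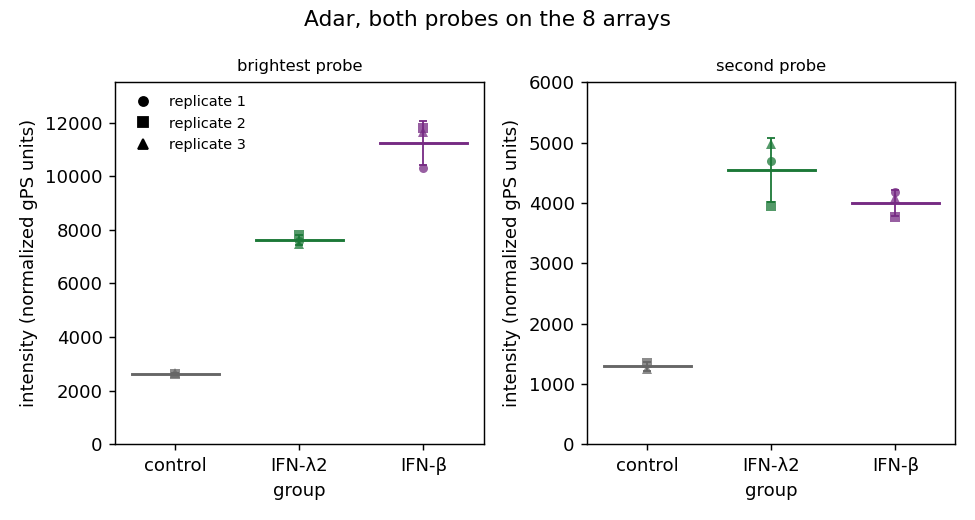
Intensity of both Adar probes in normalized gPS units on linear axes that start at 0. Points are arrays, shaped by replicate number, with the group mean and SD (control n = 2, others n = 3). For the brightest probe the IFN-β arrays (10303 to 11780 units) lie above the IFN-λ2 arrays (7452 to 7818 units), and for the second probe the 2 groups overlap.

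Among the related genes, 2 (1.92%) were higher and 2 (1.92%) lower in the IFN-λ2 group than in the IFN-β group, below the 5.53% and 5.68% of all probes. Of these, Exosc1, Trib3 and Prkra are named after their values were seen. Exosc1, an exosome subunit, differed by 0.40 (adjusted p = 0.00781, limma) and Trib3, a stress-induced pseudokinase, by 0.48 (adjusted p = 0.0248). Adarb1 differed by -0.42 (adjusted p = 0.00889) and Prkra by -0.44 (adjusted p = 0.0133). Trim25 differed by 0.18 (adjusted p = 0.17).

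The levels of the 9 genes over the 8 arrays were also set against each other and against 20248 probes well above background on all arrays, as a description. Pearson's r of log2 values was used over arrays that share their groups, so that a distance between groups raises r. Isg20 and Eif2ak2 were the most alike of the 9 genes (r = 0.99), followed by Adar and Mov10 (r = 0.98). Samhd1 and Mov10 reached 0.97, whereas Samhd1 and Isg20 reached 0.78. Apobec1 was least like the others, with r between 0.16 for Isg20 and 0.66 for Apobec3.

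For Isg20, the genes outside the 9 with the most similar pattern included Trim25 (r = 0.999) and Dhx58 (r = 0.997). For Eif2ak2 they included Ddx58, which encodes the RNA sensor RIG-I, and Parp14 (r = 0.999 each). Zc3hav1 was closest to Gbp7, Tap1 and Trim12c (r = 0.996, 0.995 and 0.994) and Pnpt1 to Arhgap45, Trim12a and Fbxw17 (r = 0.989, 0.988 and 0.987). Adar was closest to Gar1 (r = 0.999), which encodes a protein of small nucleolar ribonucleoproteins, Mov10 to B4galt5 and Hap1 (r = 0.980 and 0.979) and Samhd1 to Cirbp and Parp3 (r = 0.986 and 0.980). The nearest genes of Apobec1 were Spire1, Slc5a3 and Mtarc1 (r = 0.963, 0.962 and 0.961) and those of Apobec3 included Spata2 and Nutf2 (r = 0.946 and 0.926).

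Since 7 of the 9 genes moved together, their promoters were searched for the core of the ISRE, taken as GAAA, 2 bases of any kind and GAAA, and for that of the GAS, taken as TTC, 3 bases of any kind and GAA, on both strands. The windows, from RefSeq on GRCm38.p6, run from 250 bases before to 50 bases after an annotated start, and all 9 genes matched, with 15 windows in all. The ISRE core was found in 2 of the 9 genes, Eif2ak2 and Apobec3, or 2 of the 15 windows, and in 3.44% of all 32851 windows. The GAS core was found in 4 genes, Adar, Eif2ak2, Isg20 and Samhd1, or 4 of the 15 windows, and in 8.30% of all windows. After the sequences had been seen, the repeat of GAAA with 1 base between was also searched. It was found in Adar and Pnpt1, or 2 of the 15 windows, and in 3.17% of all windows. A match is a run of letters and not a measured binding site, and no match says nothing about the factor.

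The stretches around these matches are shown for a strongly raised gene, a gene that was not called, and both genes with the closer repeat, 5′ to 3′ on the strand of the gene with the match in capitals. That of Eif2ak2 lies 19 to 28 bases after the start, at GRCm38.p6 chr17:78882543-78882594, minus strand. That of Apobec3 is on the opposite strand and lies 140 to 131 bases before the start, at chr15:79892228-79892317, plus strand. That of Adar lies 29 to 37 bases after the start, at chr3:89730725-89730754, plus strand, and overlaps the GAS match of the same window. That of Pnpt1 lies 66 to 58 bases before the start, at chr11:29130638-29130726, plus strand.
Eif2ak2: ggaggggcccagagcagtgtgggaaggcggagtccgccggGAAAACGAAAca
Apobec3: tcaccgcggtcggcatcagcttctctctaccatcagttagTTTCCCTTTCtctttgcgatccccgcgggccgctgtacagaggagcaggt
Adar: gggcggggaagccttttcaagGAAACGAAA
Pnpt1: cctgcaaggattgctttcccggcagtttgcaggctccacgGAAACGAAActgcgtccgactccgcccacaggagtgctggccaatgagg
Apobec3 thus holds an ISRE core in a window, but not in the other of its 2, and was not called with either cytokine. Mov10 and Zc3hav1 hold none of these letter runs and rose with both. Adar and Isg20 have 3 windows each, and not all of them hold a match. Which annotated start the measured transcripts use was not examined.

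The cell line was checked against marker genes. All 8 epithelial markers were well above background on all arrays, although Vil1 read only 40.3 to 67.9 units. Their summed level was 314020 to 331840 units in control cells, 359736 to 380873 units with IFN-λ2 and 317973 to 362503 units with IFN-β. None of 8 fibroblast and smooth muscle markers was well above background on all arrays, with sums of 125 to 126, 97.5 to 111 and 127 to 237 units, and Col3a1, Pdgfra, Pdgfrb and Des did not pass the filter. Of 8 leukocyte markers, Cd3e, Itgam, Csf1r and Cd68 were well above background on all arrays, with sums of 10746 to 14362, 8584 to 10850 and 9075 to 16364 units, while Ptprc, which all leukocytes express, read at most 43.5 units and Itgax did not pass the filter. Of 4 endothelial markers only Kdr was well above background on all arrays, with list sums of 798 to 982, 799 to 949 and 890 to 923 units. The epithelial sum was higher and the fibroblast sum lower with IFN-λ2 than in control without overlap. Most of the epithelial sum was Krt18, at 200127 to 207956 units in control and 230542 to 246496 units with IFN-λ2. Cdh1, Krt19 and Tjp1 were also higher without overlap, while Epcam, Krt8, Vil1 and Cldn7 overlapped with control. In the fibroblast list only Dcn was lower without overlap, near the floor, while Col1a1, Col1a2 and Acta2 overlapped with control. With IFN-β the lowest fibroblast sum was 127 units, next to the highest in control, 126 units. Within that list Acta2 reached 143 units with IFN-β, while Col1a1, at 16.8 to 20.5 units, was lower than in control (22.7 to 29.1 units) without overlap. Itgam read 2115 to 3706 units with IFN-λ2 and 5874 to 8370 units in control, also without overlap. Csf1r went the other way, at 6063 to 6909 units with IFN-λ2 and 4604 to 5737 units in control. The part of these levels in the results was not tested. In RNA from a whole culture, fewer cells of a kind and less RNA per cell cannot be told apart.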

How the data were processed

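Cy3-labelled RNA of each sample was hybridized to its own 1-colour Agilent array. Per the file headers, the authors deposited the scanner intensity of each feature after background subtraction by Agilent Feature Extraction 10.7.3.1, before scaling between arrays. The deposited value table holds the same intensity after scaling and a floor of 15. For the 14 probes it equalled the values used here times 1 factor per array (0.909 to 0.928). The labels name Trizol and the methods a column kit for RNA extraction. Flagged features, features with a pixel coefficient of variation above 0.5 and features outside 1.42 times the interquartile range of their copies were left out. Geometric means per probe were brought to a 75th percentile of 1500 on each array, values under 15 were set to 15, and log2 was taken. Of 39429 probes, the 25972 that exceeded 15 units on 2 or more arrays were tested with limma 3.58.1 in R 4.3.3 on the 3 group means of all 8 arrays, with calls at 0.05. The fits were tested on simulated data. Figures and tables were made with Python 3.11.15.

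The genes and lists were chosen with earlier results of these data known. All 9 genes were named, with every probe. Of the related genes, those with an adjusted p under 0.05 and a 2-fold change were named, along with 14 partners fixed by name. Syncrip, Dcp2, Exosc1, Trib3, Prkra, Tarbp2, G3bp1, G3bp2 and Ddit3 fall outside this rule and were named after their values were seen. For each of the 9 genes up to 3 others with the highest Pearson r were named. Some markers and similar genes are not reported here. Gene symbols follow a GRCm38.p6 gene table, used for names alone, and probe coordinates (mm9) were copied from the scanner output. No probe was saturated. With 2 control arrays and 3 in each other group, the number of arrays limits the precision. Each slide held 1 replicate number and was scanned on the same day as the others, and each group had 1 position on all slides, so that position and treatment cannot be told apart. Deviations from the group means of same-numbered IFN-λ2 and IFN-β arrays correlated at 0.178, 0.255 and 0.297 across probes, so that these numbers pair the arrays. For control and IFN-λ2 the values were 0.001 and -0.01, and for control and IFN-β 0.101 and -0.057. The fit with a replicate block, other background corrections, scalings, floors, filters, variance estimates and a plain 2-sample test of equal variances (the methods name a pairwise group analysis without its test), and leaving out each array were alternatives.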

Additional observations from a re-analysis of the deposited data

How the results depend on the processing

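The log2 differences of the 14 probes were recomputed in 909 combinations of a probe, a comparison and another setting. In 840 the direction and the call were kept, in 64 a call was lost, and in 5, none of them called, the sign changed. The sign changes were at Apobec1 (0.01) and Apobec3 (-0.04) with normexp background correction and at Apobec3 without control replicate 2 (-0.09, in a range of -0.09 to 0.14 over the arrays left out), each for IFN-λ2 against control, and at Eif2ak2 without IFN-β replicate 1 (-0.02, range to 0.09) and Pnpt1 without IFN-β replicate 2 (-0.04, range to 0.08) in the direct comparison. Leaving out a control array leaves 1, which is then assumed to vary like the other groups.

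The number of the 9 genes called with IFN-λ2 against control lay between 6 and 7 when 1 array was left out, and with IFN-β it was 7 each time. With the plain 2-sample test, fitted to 5 arrays alone, 5 genes were called with IFN-λ2, Samhd1 (adjusted p = 0.0664) and Mov10 (adjusted p = 0.0524) being lost. With IFN-β 1 gene was called, Adar. In both comparisons 7 had an unadjusted p under 0.05. In the direct comparison, the count of 4 became 1 with normexp, 2 without the filter on dim probes, 2 with the replicate block, 2 with the plain 2-sample test and 0 where a 2-fold change was also required, and lay between 1 and 4 without 1 array. The replicate block changed no call against control of the brightest probes. For the second Samhd1 probe it gave 0.41 (adjusted p = 0.0747) with IFN-λ2 and 0.59 (adjusted p = 0.167) with IFN-β. The cause of these shifts was not tested.

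Of the related genes, 16 were called with IFN-λ2, against 9 with normexp, 18 with quantile normalization (7 higher, 11 lower), 20 without the filter on dim probes, 21 with a floor of 50, 22 with a variance trend and 2 at 2-fold, and between 10 and 18 without 1 array (10 without control replicate 3). With IFN-β, 2 were called, against 4 with a floor of 50, 0 with the plain 2-sample test (15 where its p was not adjusted) and 1 at 2-fold, and between 2 and 5 without 1 array (5 without IFN-β replicate 1). In the direct comparison 4 were called, against 2 with normexp, 7 with a floor of 50, 7 with a variance trend and 0 at 2-fold, and between 2 and 5 without 1 array (2 without IFN-λ2 replicate 1).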
